A study of Mus musculus with 15 samples.

Results

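The genes described here carry, assemble and process plasma lipoproteins: 7 apolipoprotein genes (Apoa1, Apoa2, Apoa4, Apoa5, Apob, Apoc3 and Apoe), the lipase genes Lipc and Lpl, and Mttp, which encodes the microsomal triglyceride transfer protein. They were named as a set of 10 genes, and a probe set stood for a gene where the platform's gene table gave it that 1 symbol only. Under this rule 9 of the 10 genes were measured, each by 1 probe set, among 19938 genes in the table, and Lipc was not analysed here. RNA came from whole livers of C57BL/6 mice, all labelled male and killed at 8 weeks, but 3 arrays had a female pattern (below). There were 15 mice in 5 groups of 3, with an array for each mouse. The values are log2 expression levels that the authors normalized with RMA, per the submitters' processing notes. In that scale a difference of 1 is a fold change of 2.

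The groups were NEMO/Jnk1 DKO (global Jnk1-/- with NEMOΔhepa), NEMO/Jnk2 DKO (global Jnk2-/- with NEMOΔhepa), Jnk1 KO (global Jnk1-/-), Jnk2 KO (global Jnk2-/-) and WT (NEMO floxed/floxed, with no Cre given). NEMO, encoded by Ikbkg, is the regulatory subunit of the IKK complex that activates NF-kappa B, and Jnk1 (Mapk8) and Jnk2 (Mapk9) are stress-activated kinases. The floxed NEMO gene was deleted through Alb-cre, which acts in hepatocytes and the related cells of the bile ducts, whereas each Jnk deletion was global. No group lacked NEMO alone, so the loss of NEMO was compared only on a Jnk-null background, and the labels do not say whether the single knockouts carried the floxed allele.

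Liver cells load triglyceride onto apolipoprotein B with the help of the microsomal transfer protein and release it as very low density lipoprotein, while apolipoproteins A-I and A-II form the body of high density lipoprotein. In the circulation lipoprotein lipase, held on vessel walls, breaks down the triglyceride, apolipoprotein A-V promotes and apolipoprotein C-III restrains that step, and apolipoprotein E directs the remnants to receptors. In a healthy adult liver hepatocytes make most of these apolipoproteins and little lipoprotein lipase, which is made chiefly in fat, muscle and macrophages. Because whole livers were measured, fewer cells of a type and less RNA per cell cannot be told apart in any result below.

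The targeted genes and the sex of the mice were checked on every array. Mapk9 lay between 2.39 and 3.28 in the 6 Jnk2-null arrays and between 7.41 and 7.67 in the other 9, and Mapk8 lay between 5.87 and 6.53 in the Jnk1-null arrays and between 6.58 and 7.03 elsewhere. Ikbkg, measured over all cells of the liver, lay between 6.18 and 6.85 in the 6 DKO arrays and between 7.03 and 7.41 in the WT arrays and most single-knockout arrays. Mmp12, a macrophage elastase, lay between 7.54 and 8.96 in the 6 DKO arrays and between 3.69 and 4.88 in the WT and most single-knockout arrays, but 2 arrays labelled as single knockouts did otherwise in both genes: Jnk1 KO replicate 1 had Ikbkg at 6.75 and Mmp12 at 8.66, and Jnk2 KO replicate 3 had Ikbkg at 6.24 and Mmp12 at 8.20. These 2 arrays go against their NEMO label and are called the 2 doubted arrays below, and the comparisons are given with them (as labelled) and without them. Since they were singled out because they resemble the DKO arrays, results without them are not independent evidence of a NEMO effect. Xist, expressed in females, reached 8.68 in the doubted Jnk1 KO array, 9.17 and 9.08 in NEMO/Jnk1 DKO replicates 1 and 2, and only 2.40 to 2.82 in the other 12 arrays, although all mice are labelled male. The labels give no processing batch.

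Of the 9 measured genes, Lpl was the only one that passed the test in any comparison, and it was higher in the DKO livers. With the labels as given, 1 of 9 genes passed between NEMO/Jnk2 DKO and WT livers, where 2.63% of all genes passed (limma, Benjamini-Hochberg adjusted p under 0.05 over all genes). None of the 9 passed in the other 8 comparisons. The share of all genes that passed there was 0.0652% for NEMO/Jnk1 DKO against WT, 0.411% for Jnk2 KO against WT, 0.01% for Jnk1 KO against WT, 0% for NEMO/Jnk1 DKO against Jnk1 KO, 0.00502% for NEMO/Jnk2 DKO against Jnk2 KO, 0.105% for NEMO/Jnk1 DKO against NEMO/Jnk2 DKO, 0.13% for Jnk1 KO against Jnk2 KO and 0% for the difference between the NEMO effects on the Jnk1-null and Jnk2-null backgrounds. Without the 2 doubted arrays, 1 of 9 genes, again Lpl, passed in each of 4 comparisons, where the share of all genes was 7.91% for NEMO/Jnk1 DKO against WT, 10.6% for NEMO/Jnk2 DKO against WT, 5.18% for NEMO/Jnk1 DKO against Jnk1 KO and 5.85% for NEMO/Jnk2 DKO against Jnk2 KO. The share was 0.015% for Jnk1 KO against WT, 1.24% for Jnk2 KO against WT, 0.597% for Jnk1 KO against Jnk2 KO and 0.321% for NEMO/Jnk1 DKO against NEMO/Jnk2 DKO livers, where none of the 9 passed. With 1 gene in 9 passing, these counts do not set the 9 genes apart from those shares.

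**Figure D1:**
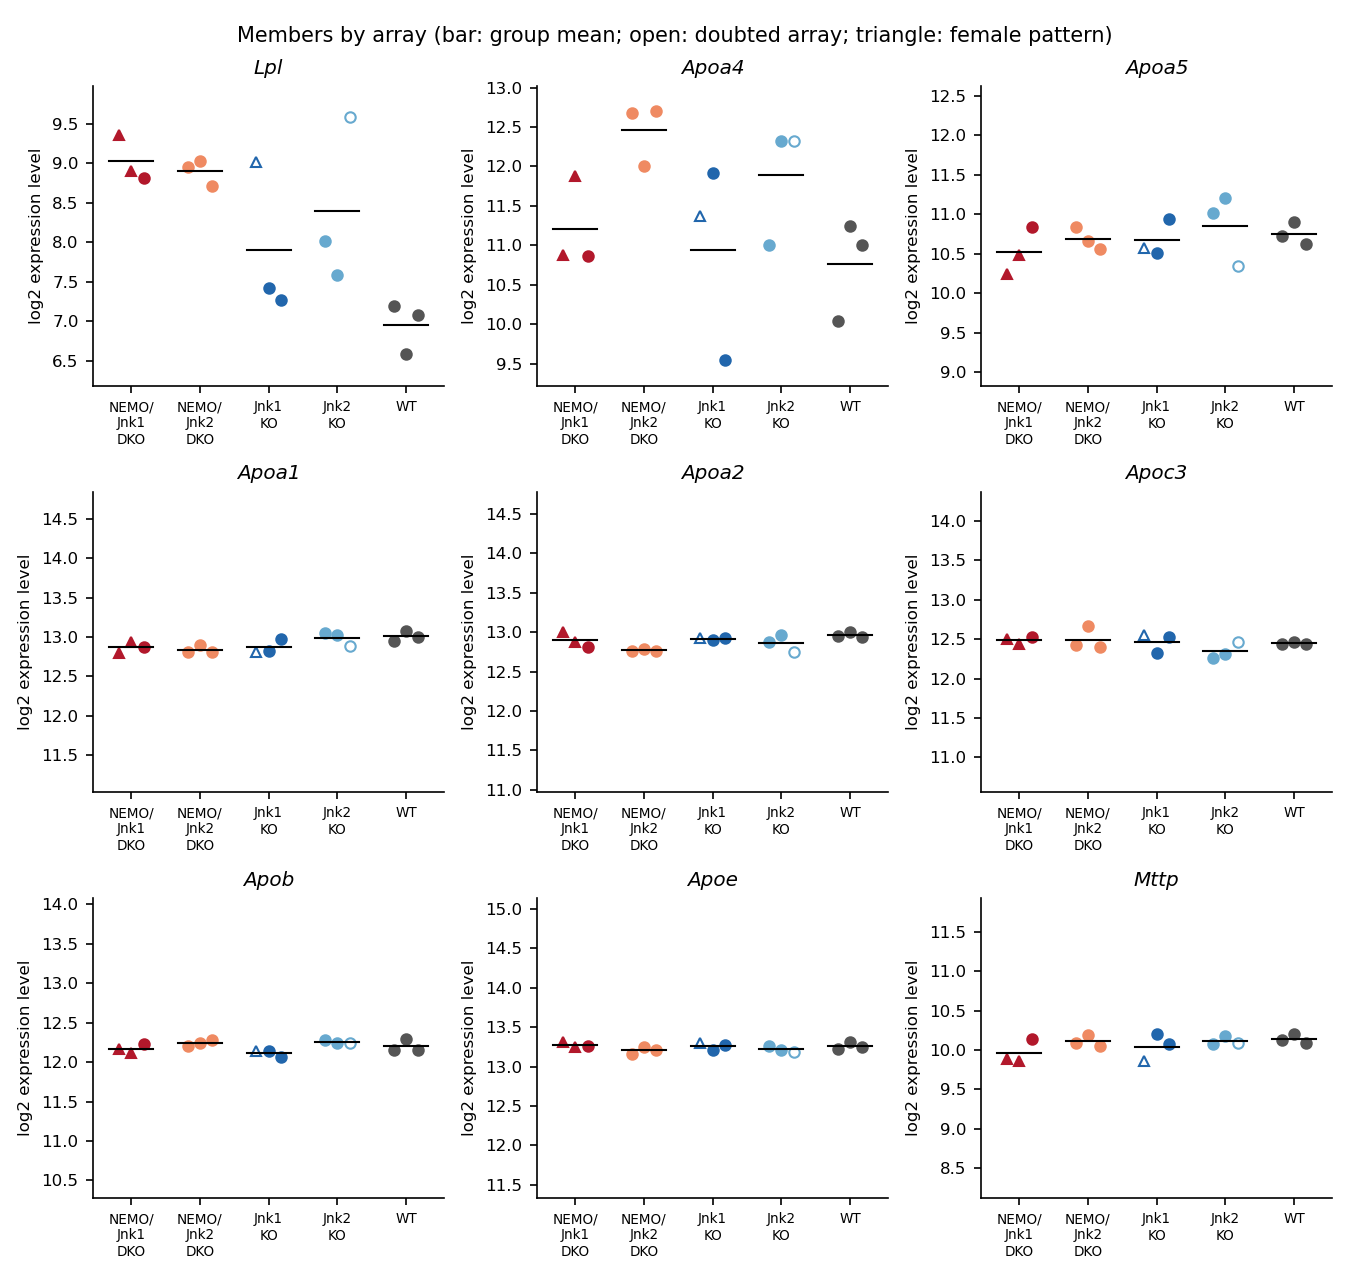
Log2 expression level of the 9 measured genes in each of the 15 arrays, with 1 point per mouse, a bar at each group mean, open symbols for the 2 doubted arrays and triangles for the 3 arrays with high Xist. All panels span the same length of the log2 scale, so that the spread of Lpl (6.58 to 9.59) and Apoa4 (9.54 to 12.70) can be set beside the flat pattern of Apoe (13.16 to 13.31).

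Lipoprotein lipase, encoded by Lpl, had the widest range of group means of the 9 genes. Its level was 9.36, 8.91 and 8.82 in the NEMO/Jnk1 DKO livers and 8.96, 9.03 and 8.71 in the NEMO/Jnk2 DKO livers. It was 9.02, 7.43 and 7.27 in the Jnk1 KO livers and 8.02, 7.58 and 9.59 in the Jnk2 KO livers, the 9.02 and the 9.59 being the 2 doubted arrays. In the WT livers it was 7.19, 6.58 and 7.08. All 6 DKO arrays therefore lay above all WT arrays and above every single-knockout array that was not doubted, and the doubted arrays lay among or above the DKO arrays.

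In order of the group means, Lpl averaged 9.03 ± 0.29 in NEMO/Jnk1 DKO, 8.90 ± 0.17 in NEMO/Jnk2 DKO, 8.40 ± 1.05 in Jnk2 KO, 7.90 ± 0.97 in Jnk1 KO and 6.95 ± 0.33 in WT livers (SD, n = 3 each). As labelled, no neighbours in this order differed beyond their spread, with limma adjusted p between 0.838 and 0.999. The order was the same without the 2 doubted arrays, with 7.80 ± 0.31 in Jnk2 KO and 7.35 ± 0.11 in Jnk1 KO livers (SD, n = 2 each), and only the step between NEMO/Jnk2 DKO and Jnk2 KO passed the test.

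Against WT, Lpl rose by 1.95 (SE 0.47) in NEMO/Jnk2 DKO livers, a fold change of 3.86 with a 95% interval of 1.91 to 7.81 (limma adjusted p = 0.0471). The difference was 2.08 (SE 0.47) in NEMO/Jnk1 DKO livers, a fold change of 4.23 with an interval of 2.09 to 8.55, which missed the threshold (limma adjusted p = 0.0962). Leaving out the 2 doubted arrays, both differences kept their size, since neither array belongs to these groups, but the shared estimate of the spread shrank and both passed (limma adjusted p = 4.1e-05 for NEMO/Jnk1 DKO and 4.19e-05 for NEMO/Jnk2 DKO). The call for NEMO/Jnk2 DKO as labelled stood close to the threshold: it was lost in 10 of the 15 fits that each left out 1 array, with adjusted p up to 0.165.

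The comparison of each DKO group with its own single knockout asks what the loss of hepatocyte NEMO added. As labelled, Lpl was 1.13 (SE 0.47) higher in NEMO/Jnk1 DKO than in Jnk1 KO livers (limma adjusted p = 0.962) and 0.50 (SE 0.47) higher in NEMO/Jnk2 DKO than in Jnk2 KO livers (adjusted p = 0.838), and neither passed. Without the 2 doubted arrays the differences were 1.68 (SE 0.20) for the Jnk1-null pair (limma adjusted p = 0.000451) and 1.10 (SE 0.20) for the Jnk2-null pair (adjusted p = 0.00614). The NEMO effects on the Jnk1-null and Jnk2-null backgrounds differed by 0.59 with a 95% interval of -0.03 to 1.21 without those arrays (limma adjusted p = 0.769), so a difference between the backgrounds was not shown.

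The single knockouts were compared with WT for the effect of each Jnk gene alone. Lpl was 1.45 (SE 0.47) higher in Jnk2 KO livers as labelled (limma adjusted p = 0.221) and 0.85 (SE 0.20) higher without the doubted array (adjusted p = 0.0674). In Jnk1 KO livers it was 0.95 (SE 0.47) higher as labelled (limma adjusted p = 0.860) and 0.40 (SE 0.20) higher without the doubted array (adjusted p = 0.976). None of these passed, although both remaining Jnk2 KO arrays (8.02 and 7.58) and both remaining Jnk1 KO arrays (7.43 and 7.27) lay above the highest WT array (7.19).

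The high Xist level of 2 NEMO/Jnk1 DKO arrays touches the Jnk1-null comparisons. With the 2 doubted arrays left out and a term for the Xist pattern in the fit, the difference in Lpl was 1.87 between NEMO/Jnk1 DKO and WT livers (limma adjusted p = 0.00448) and 1.47 between NEMO/Jnk1 DKO and Jnk1 KO livers (adjusted p = 0.0213). These values rest on NEMO/Jnk1 DKO replicate 3, at 8.82, the only array of that group with low Xist. With all 3 arrays of high Xist left out and the doubted Jnk2 KO array kept, the difference from WT was 1.87 in NEMO/Jnk1 DKO livers (1 array, limma adjusted p = 0.315) and 1.95 in NEMO/Jnk2 DKO livers (adjusted p = 0.0165).

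**Figure D2:**
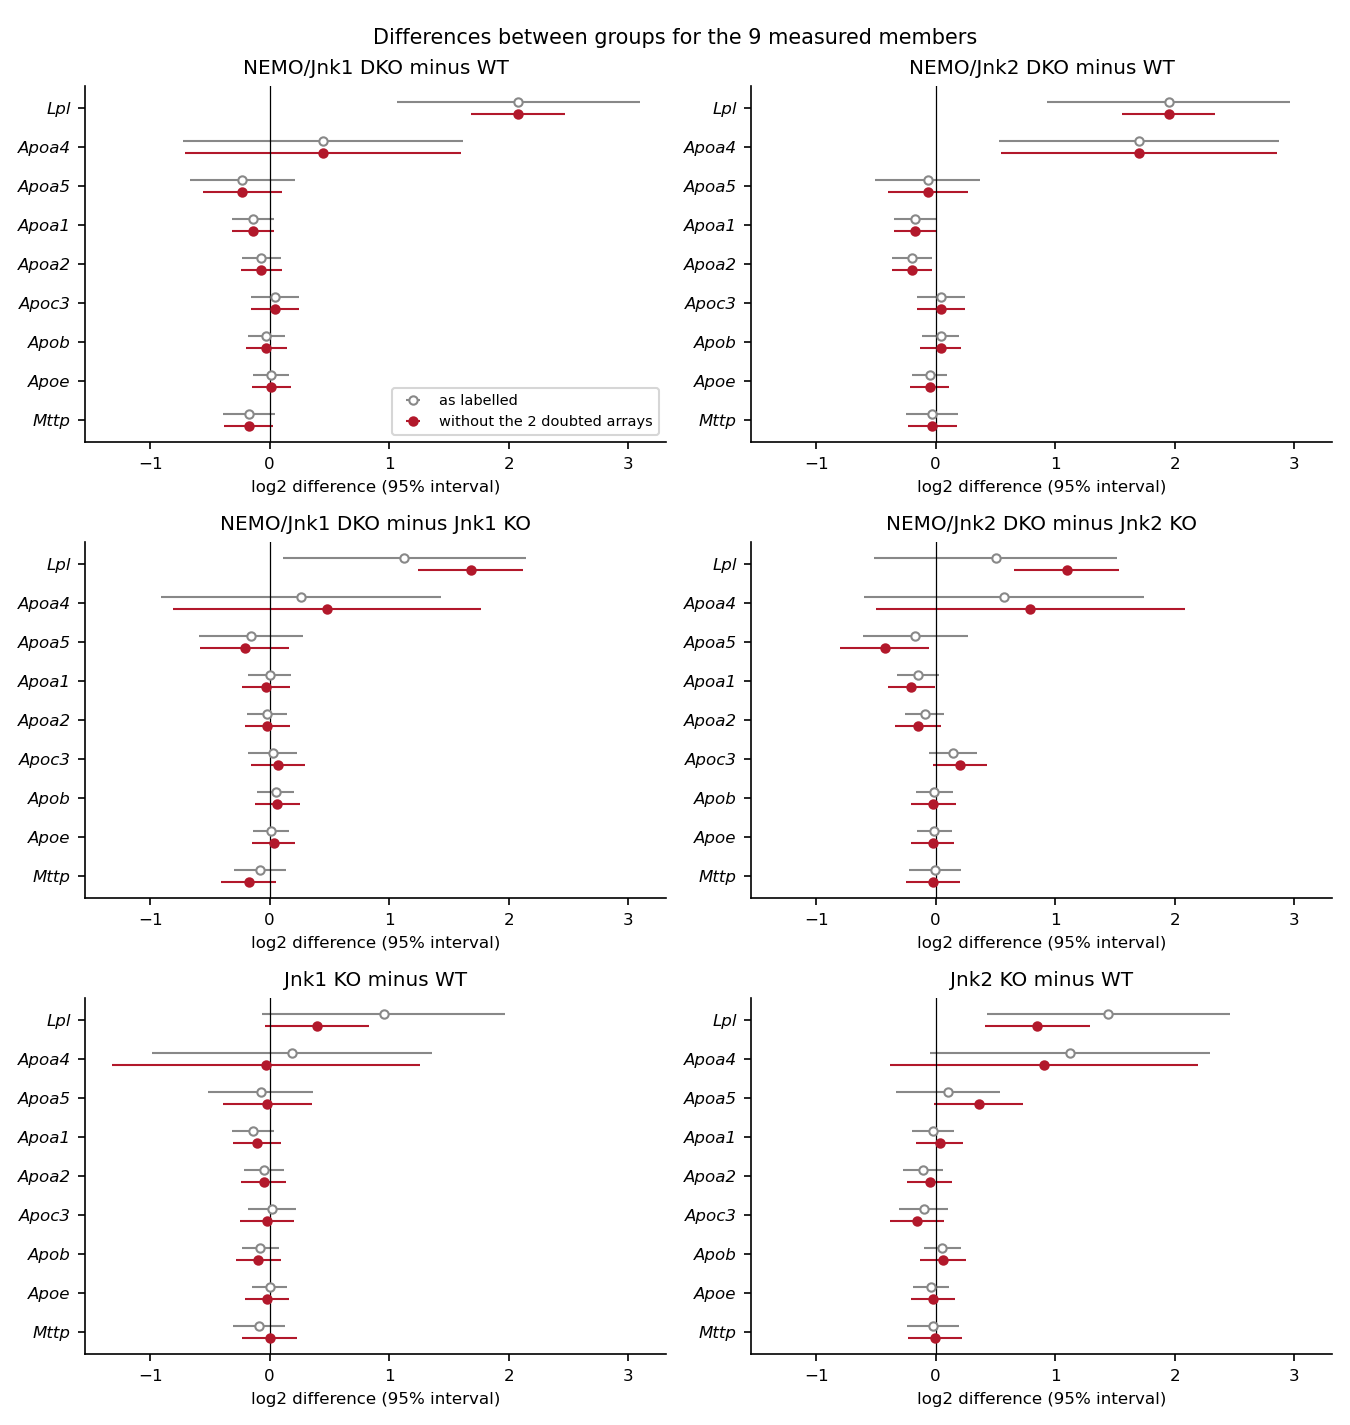
Log2 differences with 95% intervals for the 9 measured genes in 6 comparisons, open points for the arrays as labelled and filled points without the 2 doubted arrays. Lpl lies near 2 in both comparisons of DKO with WT livers, Apoa4 has the widest intervals, and the other 7 genes lie between -0.43 and 0.36.

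On average, markers of macrophages moved with Lpl, but not every marker did. Clec4f was at 6.88 in the doubted Jnk2 KO array, which had the highest Lpl level, against 7.08, 7.86 and 7.98 in WT livers. In NEMO/Jnk2 DKO livers Clec4f (7.99, 8.38 and 7.64) and Timd4 (6.51, 6.77 and 5.83) overlapped WT, where Timd4 was 5.65, 6.40 and 6.39. The mean of 12 of 12 macrophage and Kupffer cell markers was 7.98 to 8.48 in NEMO/Jnk1 DKO, 7.75 to 8.42 in NEMO/Jnk2 DKO and 7.73 to 8.10 in the 2 doubted arrays, against 7.22 to 7.31 in the other Jnk1 KO arrays, 7.14 to 7.62 in the other Jnk2 KO arrays and 6.62 to 7.33 in WT livers. For 5 of 6 markers of scar-associated macrophages the mean was 6.21 to 6.55 in NEMO/Jnk1 DKO, 6.47 to 6.85 in NEMO/Jnk2 DKO and 6.68 to 7.30 in the doubted arrays, against 4.47 to 4.81 in all other arrays. Mmp12 is 1 of these 5 markers and was also used to single out the doubted arrays. Their high mean, and the calls for these markers made without them, are therefore not independent of that choice. As labelled, 3 of the 12 macrophage markers and 1 of the 5 scar-associated markers rose in NEMO/Jnk2 DKO livers against WT, where 0.873% of all genes rose, and none passed in NEMO/Jnk1 DKO livers. Without the doubted arrays, 9 of the 12 macrophage markers rose in each DKO group against WT, as did 4 of 5 scar-associated markers in NEMO/Jnk1 DKO and 5 of 5 in NEMO/Jnk2 DKO livers. The share of all genes that rose in that setting was 4.92% in NEMO/Jnk1 DKO livers and 5.75% in NEMO/Jnk2 DKO livers. The mean of 6 of 6 stellate cell markers was also higher in these arrays, at 7.84 to 7.98 in NEMO/Jnk1 DKO, 7.74 to 7.91 in NEMO/Jnk2 DKO and 7.94 to 8.06 in the doubted arrays, against 6.70 to 7.17 in all others. No stellate cell marker passed as labelled between either DKO group and WT. Without the doubted arrays 4 of the 6 rose for NEMO/Jnk1 DKO against WT, where 4.92% of all genes rose. For NEMO/Jnk2 DKO 3 of the 6 rose, where 5.75% of all genes did. Lrat in NEMO/Jnk2 DKO livers (6.45, 6.87 and 6.92) overlapped WT (5.80, 6.84 and 6.19), as did Reln. Col1a1, Pdgfrb, Dcn and Des lay above every WT array there. The part of macrophages and stellate cells in the Lpl difference was not tested.

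Fat tissue, another well-known source of Lpl, was looked for through 5 of 5 adipocyte markers. No list of muscle markers was read. Adipoq and Lep, which encode the fat cell hormones adiponectin and leptin, were below 3.69, the 40th percentile of all values, in every array. Plin1, a lipid droplet protein, lay between 3.57 and 4.40. Cidec, another lipid droplet protein, was at 5.22, 5.11 and 5.10 in NEMO/Jnk1 DKO livers, 6.61, 5.72 and 5.68 in NEMO/Jnk2 DKO and 5.64 and 6.27 in the doubted arrays, against 5.01, 4.69 and 4.81 in WT livers. It was the 1 marker of the 5 that rose, by 1.17 in NEMO/Jnk2 DKO against WT without the doubted arrays (limma adjusted p = 0.00275), where 5.75% of all genes rose, and as labelled it did not pass (adjusted p = 0.0825). Fabp4, a fatty acid carrier of fat cells and macrophages, was at 5.86, 5.21 and 5.63 in NEMO/Jnk1 DKO livers, 5.19, 6.26 and 6.93 in NEMO/Jnk2 DKO and 5.55 and 6.79 in the doubted arrays, against 5.07, 5.36 and 5.55 in WT livers. The mean of the 5 markers was 3.90 to 4.32 in NEMO/Jnk1 DKO livers, 4.21 to 4.26 in NEMO/Jnk2 DKO livers and 4.06 and 4.62 in the doubted arrays, against 3.88 to 4.0 in WT livers. The highest of these means, 4.62, was in the doubted Jnk2 KO array, which also had the highest Lpl level. The part of fat cells in the Lpl difference was not tested. The mean of 8 of 10 hepatocyte markers was 12.70 to 12.77 in NEMO/Jnk1 DKO livers and 12.58 to 12.65 in NEMO/Jnk2 DKO livers, against 12.71 to 12.84 in WT livers. Of the 8, none passed as labelled, and without the doubted arrays 2 fell in NEMO/Jnk2 DKO against WT (Hpd and Tat), where 4.86% of all genes fell, and none passed in NEMO/Jnk1 DKO livers.

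Over the 15 arrays, the 5 genes whose pattern was most like that of Lpl were Inpp5d (Pearson r = 0.976), Ptprc (0.958), Emilin1 (0.955), Tmem71 (0.955) and Anxa2 (0.954). With each group's mean removed, r was 0.975, 0.952, 0.903, 0.951 and 0.949 for the same genes in that order. Ptprc encodes the leukocyte antigen CD45, and Inpp5d a phosphatase of blood cells. These correlations were computed over 15 arrays that share the groups and the 2 doubted arrays, and they are descriptions.

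**Figure D3:**
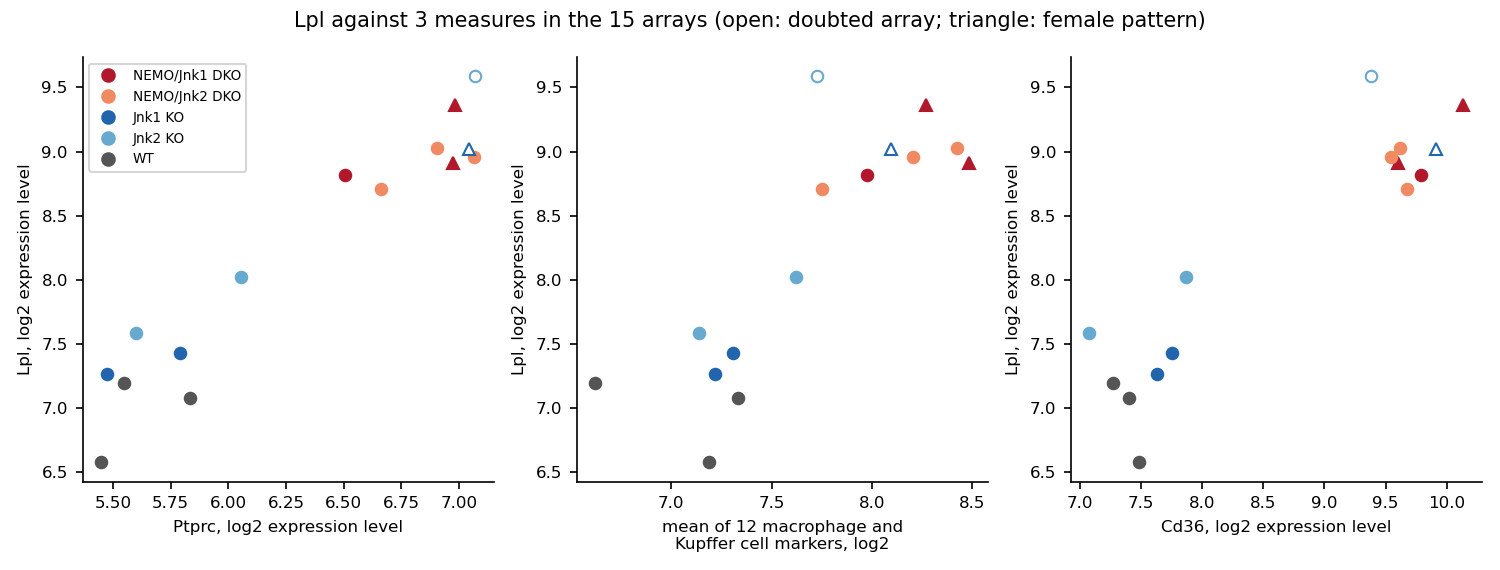
Log2 level of Lpl against that of Ptprc, the mean of 12 macrophage and Kupffer cell markers, and Cd36 in the 15 arrays, coloured by group, with open symbols for the doubted arrays and triangles for high Xist. The 6 DKO arrays and the 2 doubted arrays lie together at the upper right, and the WT arrays lie lowest for Lpl.

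Apoa4, which encodes apolipoprotein A-IV, a protein of newly made triglyceride-rich particles and of high density lipoprotein, was the other variable gene. Its level was 10.88, 11.88 and 10.87 in NEMO/Jnk1 DKO livers and 12.67, 12.01 and 12.70 in NEMO/Jnk2 DKO livers. It was 11.38 (doubted), 11.92 and 9.54 in Jnk1 KO and 11.01, 12.32 and 12.33 (doubted) in Jnk2 KO livers, and 10.03, 11.25 and 11.00 in WT livers. The NEMO/Jnk2 DKO arrays lay above all WT and all NEMO/Jnk1 DKO arrays, and overlapped the Jnk2 KO arrays.

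The group means of Apoa4 ran in the order NEMO/Jnk2 DKO at 12.46 ± 0.39, Jnk2 KO at 11.89 ± 0.76, NEMO/Jnk1 DKO at 11.21 ± 0.58, Jnk1 KO at 10.95 ± 1.25 and WT at 10.76 ± 0.64 (SD, n = 3 each). Its spread within groups was larger than that of 99.2% of the genes tested. Against WT the difference was 1.70 (SE 0.55) in NEMO/Jnk2 DKO livers, a fold change of 3.25 with a 95% interval of 1.44 to 7.32, and it missed the threshold (limma adjusted p = 0.109 as labelled and 0.0615 without the doubted arrays). It passed in 3 of the 28 other settings, with adjusted p between 0.0111 and 0.295 over all of them. In Jnk2 KO livers the difference from WT was 1.13 (SE 0.55, limma adjusted p = 0.431), and between NEMO/Jnk1 DKO and NEMO/Jnk2 DKO livers it was -1.25 (SE 0.55, adjusted p = 0.862).

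Apoa4 is also made in the gut, and markers of intestine were therefore read beside it. The mean of 3 of 3 such markers was 4.60 to 4.72 in NEMO/Jnk1 DKO livers and 4.62 to 4.83 in NEMO/Jnk2 DKO livers, against 4.77 to 5.04 in WT livers, and Cdx2, which defines that tissue, was below 3.69 in every array. Over the 15 arrays Vil1 lay between 3.08 and 3.73, but Fabp2 lay between 7.32 and 8.17. The part of gut tissue in the Apoa4 levels was not tested. The genes most like Apoa4 over the 15 arrays were Skap2 (Pearson r = 0.939), C330018D20Rik (0.858), Litaf (0.837), Pelp1 (0.822) and Pabpc1 (0.814). The r over deviations from the group means was 0.893, 0.889, 0.670, 0.821 and 0.730 in that order.

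Apoa1, Apoc3, Apoa4 and Apoa5 are consecutive protein-coding genes on mouse chromosome 9, in that order in the RefSeq annotation of GRCm38.p6, with Sik3 before and Zpr1 after them. The windows of 250 bases before the start of 3 of them are shown because the 4 neighbours differed in how far they varied: the spread within groups was larger than that of 99.2% of genes for Apoa4 and 89.4% for Apoa5, but of only 14.2% for Apoc3 and 3.84% for Apoa1. The windows, from RefSeq on GRCm38.p6, lie on the plus strand at chr9:46240594-46240843 for Apoa4, chr9:46268358-46268607 for Apoa5 and chr9:46228380-46228629 for Apoa1. Each is written 5′ to 3′ up to the base before the start, with the motifs found in capitals.
Apoa4: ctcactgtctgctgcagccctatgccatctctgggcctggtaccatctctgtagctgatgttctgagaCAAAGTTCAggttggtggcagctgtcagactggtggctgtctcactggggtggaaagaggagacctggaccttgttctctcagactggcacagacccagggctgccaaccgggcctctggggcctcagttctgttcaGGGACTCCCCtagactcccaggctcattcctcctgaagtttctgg
Apoa5: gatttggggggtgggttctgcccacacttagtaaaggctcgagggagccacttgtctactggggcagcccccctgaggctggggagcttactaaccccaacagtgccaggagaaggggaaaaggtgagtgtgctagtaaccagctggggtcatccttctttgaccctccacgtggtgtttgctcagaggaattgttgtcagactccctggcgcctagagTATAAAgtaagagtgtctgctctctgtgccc
Apoa1: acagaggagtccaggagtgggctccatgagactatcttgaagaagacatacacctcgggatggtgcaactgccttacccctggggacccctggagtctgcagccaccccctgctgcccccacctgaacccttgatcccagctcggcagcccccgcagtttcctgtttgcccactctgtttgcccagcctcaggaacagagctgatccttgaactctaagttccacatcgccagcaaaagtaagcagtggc
The letters searched on both strands were TATAAA, the nuclear receptor motif AGGTCA, CAAAGTNCA of the kind that HNF4 binds, CCAAT, and the consensus of a kappa B site, and they were chosen after the windows had been read. Apoa4 held CAAAGTNCA at bases -182 to -174 from the start, letters present in 1.21% of 27025 mouse promoter windows of the same length, and a match to the kappa B consensus at bases -45 to -36, found in 3.75% of the windows. Both lay on the printed strand. Apoa5 held TATAAA at bases -31 to -26, letters present in 13.0% of the windows. Apoa1 held none of the 5, and no found motifs overlapped in these 3 windows. The window of Apob, not printed here, also held a match to the kappa B consensus, at bases -210 to -201 on the opposite strand. The spread of Apob within groups was larger than that of only 0.361% of genes. A match in letters is a description that shows no binding.

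Apoa5 and Apoc3, which act on triglyceride breakdown from this cluster, did not pass in any comparison. Apoa5 was at 10.24, 10.49 and 10.83 in NEMO/Jnk1 DKO livers, 10.84, 10.66 and 10.55 in NEMO/Jnk2 DKO, 10.57 (doubted), 10.51 and 10.95 in Jnk1 KO, 11.01, 11.21 and 10.34 (doubted) in Jnk2 KO and 10.73, 10.90 and 10.62 in WT livers. The groups overlapped throughout as labelled. Leaving out the doubted array, which was the lowest of its group, put the Jnk2 KO mean at 11.11, and the difference between NEMO/Jnk2 DKO and Jnk2 KO livers was then -0.43 (SE 0.17, limma adjusted p = 0.200). Apoc3 lay between 12.27 and 12.66 in all 15 arrays. The genes most like Apoa5 in pattern were C2cd3 (Pearson r = 0.900), Nrn1l (0.854), Fut7 (0.845), Tbc1d15 (0.838) and Dclre1b (0.829), with r of 0.923, 0.864, 0.893, 0.890 and 0.819 over deviations from the group means.

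The structural apolipoproteins of high density lipoprotein varied little. Apoa1, whose product activates cholesterol esterification on these particles, lay between 12.80 and 13.07 over all arrays and was lowest on average in NEMO/Jnk2 DKO livers (12.84 ± 0.05, against 13.01 ± 0.06 in WT, SD, n = 3 each). Apoa2 lay between 12.75 and 13.00, with 12.77 ± 0.01 in NEMO/Jnk2 DKO and 12.96 ± 0.03 in WT livers (SD, n = 3 each). The Apoa2 difference of -0.20 (SE 0.08) had the smallest adjusted p among the 7 genes other than Lpl and Apoa4 (limma, 0.181 as labelled and 0.147 without the doubted arrays). In both genes the 3 NEMO/Jnk2 DKO arrays lay below the 3 WT arrays, with fold changes of 0.889 for Apoa1 and 0.872 for Apoa2.

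Apoe and the 2 genes of particle assembly were flat as well. Apoe, the ligand for remnant uptake, lay between 13.16 and 13.31, and its spread within groups was smaller than that of nearly all genes: only 0.0903% had a smaller one. Apob, the single large protein of each very low density particle, lay between 12.07 and 12.29 and had a smaller spread than all but 0.361% of genes. Mttp lay between 9.85 and 10.20, with its 3 lowest arrays (9.85, 9.86 and 9.89) being the 3 arrays with high Xist. The first and the third of these values belong to NEMO/Jnk1 DKO, where the difference from WT was -0.18 (SE 0.10, limma adjusted p = 0.413).

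For the 6 genes other than Lpl, Apoa4 and Apoa5, the differences in the 8 comparisons of groups lay between -0.20 and 0.15 on the log2 scale as labelled, and every 95% interval lay within fold changes of 0.761 to 1.27. Leaving out the 2 doubted arrays, the intervals lay within 0.755 to 1.35. These ranges are the outer bounds over all these intervals and not a limit of detection. For Apoa2 in NEMO/Jnk2 DKO against WT livers, the interval as labelled was 0.778 to 0.978 (limma adjusted p = 0.181). With 2 or 3 mice a group, changes inside a gene's own interval were not excluded. The levels of the 5 apolipoproteins among them (12.07 to 13.31) lie near the top of the scale, where the highest value of any gene was 13.68 to 13.91 per array, and whether differences are compressed there was not tested.

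Beyond the 9 genes, 6 lists with 98 genes of lipoprotein metabolism were read in the same fits, and 87 of the 98 were measured. As labelled, 3 of the 87 rose and 6 fell in NEMO/Jnk2 DKO livers against WT, where 0.873% of all genes rose and 1.76% fell, and none passed in NEMO/Jnk1 DKO livers. Without the doubted arrays, 5 rose and 13 fell in NEMO/Jnk2 DKO livers, where 5.75% of all genes rose and 4.86% fell, and 3 rose and 12 fell in NEMO/Jnk1 DKO livers, where 4.92% rose and 2.99% fell. The median difference over the 87 genes was -0.09 in NEMO/Jnk2 DKO livers and -0.06 in NEMO/Jnk1 DKO livers, against -0.04 over all genes in each. With the term for the Xist pattern added, 1 of 87, Cd36, passed between NEMO/Jnk1 DKO and WT livers, where 262 of all genes passed.

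Among 12 measured receptors and uptake proteins, Cd36, which encodes a fatty acid and lipoprotein scavenger receptor, changed most. Its level was 10.13, 9.60 and 9.79 in NEMO/Jnk1 DKO livers, 9.54, 9.62 and 9.67 in NEMO/Jnk2 DKO, 9.92 (doubted), 7.75 and 7.63 in Jnk1 KO, 7.87, 7.08 and 9.38 (doubted) in Jnk2 KO and 7.27, 7.49 and 7.40 in WT livers. As for Lpl, the DKO and the 2 doubted arrays stood above all others. Against WT the difference was 2.22 (SE 0.55) in NEMO/Jnk2 DKO livers as labelled (limma adjusted p = 0.0493), and without the doubted arrays it was 2.45 in NEMO/Jnk1 DKO livers (adjusted p = 1.13e-05) and 2.22 in NEMO/Jnk2 DKO livers (adjusted p = 1.02e-05). Sdc1, a heparan sulphate proteoglycan that binds remnants, also rose in NEMO/Jnk1 DKO livers without the doubted arrays, by 0.46 against WT (limma adjusted p = 0.0114). Its level in NEMO/Jnk2 DKO livers (9.10, 9.03 and 9.31) and in the doubted arrays (9.66 and 8.99) was also above every WT array (8.81, 8.93 and 8.73). Between NEMO/Jnk2 DKO and WT livers Sdc1 did not pass.

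Among 13 other apolipoproteins, Saa1 and Saa2, whose products are acute-phase apolipoproteins of high density lipoprotein, were higher in all 6 arrays of the Jnk2-null groups than in the other 9 arrays. Saa2 was at 10.62, 10.23 and 11.97 in NEMO/Jnk2 DKO and 10.33, 11.62 and 10.41 (doubted) in Jnk2 KO livers, while it lay between 7.10 and 8.87 in NEMO/Jnk1 DKO, 7.34 and 8.25 in Jnk1 KO and 7.34 and 8.14 in WT livers. It rose by 3.26 (SE 0.50) in NEMO/Jnk2 DKO livers against WT (limma adjusted p = 0.00772) and by 3.10 (SE 0.50) in Jnk2 KO livers against WT (adjusted p = 0.0192). Saa1 rose by 2.70 (SE 0.56) in NEMO/Jnk2 DKO livers (limma adjusted p = 0.029). Saa4, which encodes the constitutive member of the family, did not share this pattern, with 9.26, 9.24 and 9.98 in NEMO/Jnk2 DKO and 11.08, 10.61 and 9.32 (doubted) in Jnk2 KO livers, against 9.78, 9.30 and 9.75 in WT livers. Between NEMO/Jnk2 DKO and WT livers Apol7a fell by 1.07 on the log2 scale (SE 0.17, limma adjusted p = 0.00859), and Clu, which encodes apolipoprotein J, rose by 0.38 without the doubted arrays (adjusted p = 0.00939). Apol7a was also below every WT array (7.56, 7.49 and 7.48) in Jnk2 KO livers, at 6.94, 6.49 and 6.66 (doubted). In NEMO/Jnk1 DKO livers the only call in this list, without the doubted arrays, was Saa4, which fell by 0.96 on the log2 scale (SE 0.22, limma adjusted p = 0.0158).

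**Figure D4:**
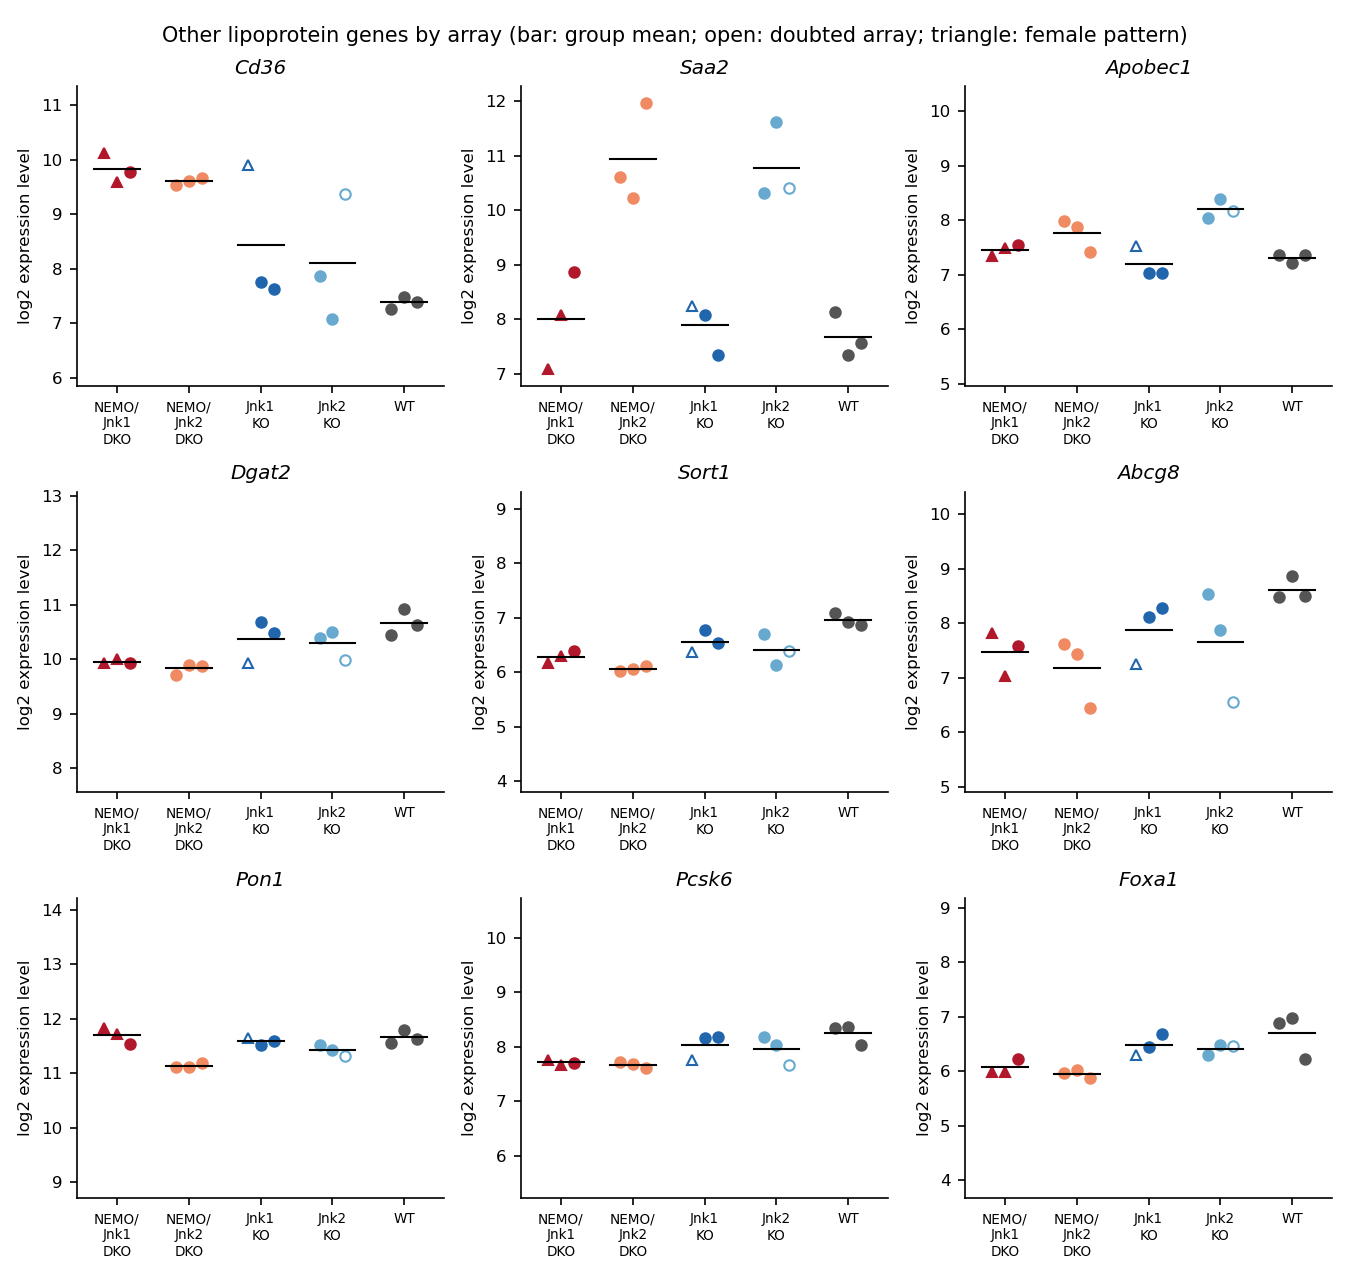
Log2 expression level of 9 other lipoprotein genes in each array, with 1 point per mouse, a bar at each group mean, open symbols for the doubted arrays and triangles for high Xist. Cd36 is high in the DKO and doubted arrays, Saa2 in the Jnk2-null arrays, and Dgat2, Sort1 and Pcsk6 are lower in the DKO than in the WT arrays. Sort1 is also lower in the single-knockout than in the WT arrays.

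Among 16 genes of particle assembly, Sort1, a sorting receptor that affects the release of very low density lipoprotein, fell by 0.89 on the log2 scale in NEMO/Jnk2 DKO livers against WT (SE 0.13, limma adjusted p = 0.00692). Dgat2, which makes triglyceride for these particles, fell by 0.83 in the same comparison (SE 0.18, adjusted p = 0.0325). Both also fell in NEMO/Jnk1 DKO livers when the doubted arrays were left out, Sort1 by 0.68 (limma adjusted p = 0.00611) and Dgat2 by 0.71 (adjusted p = 0.00218). No other gene of this list passed in either comparison of DKO with WT livers. In the single knockouts Sort1 was also below every WT array (7.08, 6.92 and 6.87). Its level there was 6.37 (doubted), 6.76 and 6.54 in Jnk1 KO and 6.69, 6.13 and 6.38 (doubted) in Jnk2 KO livers.

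In the same list Apobec1, the deaminase that edits Apob mRNA in mouse liver, was high in Jnk2 KO livers. Its level was 8.04, 8.40 and 8.17 (doubted) in Jnk2 KO, against 7.37, 7.21 and 7.36 in WT livers, without overlap. In NEMO/Jnk2 DKO livers Apobec1 was at 7.99, 7.88 and 7.42, also above every WT array, but did not pass against WT. In Jnk2 KO against WT livers it rose by 0.89 (SE 0.16, limma adjusted p = 0.0318), and by 0.91 without the doubted arrays (adjusted p = 0.0126). Between Jnk1 KO and Jnk2 KO livers the difference was -1.0 (SE 0.16, limma adjusted p = 0.0292). These arrays do not measure the editing of Apob mRNA.

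Of 11 measured lipases and their regulators, Pcsk6, a convertase that cleaves lipases, fell by 0.58 in NEMO/Jnk2 DKO livers against WT (SE 0.14, limma adjusted p = 0.0483) and, without the doubted arrays, by 0.53 in NEMO/Jnk1 DKO livers (adjusted p = 0.00474). Creb3l3, which encodes a liver transcription factor of triglyceride metabolism and is also in the list of regulators, fell without the doubted arrays by 0.37 in NEMO/Jnk2 DKO (adjusted p = 0.0308) and by 0.41 in NEMO/Jnk1 DKO livers (adjusted p = 0.0224). In the single knockouts Creb3l3 was also below every WT array (9.03, 9.21 and 9.10). Its level there was 8.65 (doubted), 8.87 and 8.85 in Jnk1 KO and 8.85, 8.74 and 8.71 (doubted) in Jnk2 KO livers. No gene of this list rose in either comparison of DKO with WT livers.

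Of 14 genes of high density lipoprotein and cholesterol export, Pon1, a paraoxonase carried on that particle, fell by 0.52 in NEMO/Jnk2 DKO livers against WT (SE 0.10, limma adjusted p = 0.0169). In Jnk2 KO livers Pon1 (11.52, 11.43 and 11.31, the last doubted) was also below every WT array (11.55, 11.78 and 11.63). Without the doubted arrays, 1 of the 14 rose and 4 fell in NEMO/Jnk2 DKO livers against WT, where 5.75% of all genes rose and 4.86% fell. In NEMO/Jnk1 DKO livers 1 rose and 2 fell, where 4.92% rose and 2.99% fell. In that setting Abcg8 and Abcg5, the partners of the biliary sterol exporter, fell by 1.44 (limma adjusted p = 0.00489) and 1.11 (adjusted p = 0.0194) in NEMO/Jnk2 DKO livers, while Abcg1, a cholesterol exporter of macrophages and other cells, rose by 0.73 (adjusted p = 0.00665). In NEMO/Jnk1 DKO livers Abcg8 fell by 1.14 (limma adjusted p = 0.025), Bmp1, which processes pro-apolipoprotein A-I, fell by 0.47 (adjusted p = 0.0208), and Abcg1 rose by 0.64 (adjusted p = 0.0186).

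Of 22 measured transcriptional regulators of apolipoprotein genes, Foxa1 fell by 0.75 in NEMO/Jnk2 DKO livers against WT (SE 0.16, limma adjusted p = 0.0338). Without the doubted arrays, none rose and 5 fell in NEMO/Jnk2 DKO livers, where 4.86% of all genes fell, and none rose and 6 fell in NEMO/Jnk1 DKO livers, where 2.99% fell. With the term for the Xist pattern added, none of the 22 passed between NEMO/Jnk1 DKO and WT livers. The list's median difference was -0.31 in NEMO/Jnk2 DKO and -0.34 in NEMO/Jnk1 DKO livers, against -0.04 over all genes. Examples from that setting are Ppargc1a, a coactivator of nuclear receptors, which fell by 0.90 in NEMO/Jnk2 DKO livers (limma adjusted p = 0.00109), and Mlxipl, a carbohydrate-responsive factor, which fell by 0.86 there (adjusted p = 0.00686) and by 0.81 in NEMO/Jnk1 DKO livers (adjusted p = 0.0131). Nr5a2 fell by 0.59 in NEMO/Jnk2 DKO livers (limma adjusted p = 0.0285), and Cebpa by 0.62 (adjusted p = 0.0244) and Ppara by 0.46 (adjusted p = 0.0217) in NEMO/Jnk1 DKO livers. Among the 9 measured genes the apolipoproteins Apoa1, Apoa2, Apob, Apoc3 and Apoe did not pass in these comparisons.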

How the data were processed

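Total RNA from whole livers was hybridised to Affymetrix whole-transcript arrays, 1 per mouse, per the labels' protocols. The authors deposited log2 expression values made with RMA, per the submitters' processing notes, and base 2 was inferred from the values' range. Array medians lay between 4.26 and 4.38, pairwise Pearson r between 0.976 and 0.991, and no arrays were identical. Of 35556 probe sets, the 21789 with 1 gene symbol were kept, and the one with the highest mean stood for a gene, which left 19938 genes. limma 3.58.1 in R 4.3.3 (lmFit, eBayes) fitted 1 mean per group to all 15 arrays, and the threshold was an adjusted p of 0.05 (Benjamini-Hochberg, over all genes). Tests were tried on simulated data. The genes described, the lists, the markers and the 2 doubted arrays were chosen with earlier results of these data known. From each list up to 4 passing genes with the largest difference are named, and Apobec1 and the second comparisons of Saa2 were added after their values were seen. The replicate numbers do not pair the mice: each mouse has its own number in the labels, and deviations of same-numbered arrays correlated at -0.01 on average. Alternatives covered normalization, filters, variance models, doubted arrays, the Xist pattern and leaving out each array. The few arrays limit the precision. Promoter windows came from RefSeq (GRCm38.p6), with Python 3.11.15 and pandas 2.3.3, and figures from matplotlib 3.10.9.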

Additional observations from a re-analysis of the deposited data

How the results depend on the processing

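Each count of passing genes among the 9 was recomputed under 28 settings, as were 5 differences: Lpl in each DKO group against WT and against its single knockout, and Apoa4 in NEMO/Jnk2 DKO against WT livers. None of these 5 changed sign. Of the differences outside these 5, none of which passed as labelled, some changed sign. For example, Apoa4 in Jnk1 KO against WT livers was 0.19 as labelled and -0.03 without the 2 doubted arrays. Lpl in NEMO/Jnk1 DKO against NEMO/Jnk2 DKO livers was 0.13 as labelled and -0.08 without the 3 arrays of high Xist. Differences of Apoa1, Apoc3, Apoe and Mttp between single-knockout and WT livers also changed sign without the 2 doubted arrays. Between NEMO/Jnk2 DKO and WT livers the count of 1 became 2 (Lpl and Apoa4) with only the arrays compared and with array weights. It became 0 with an intensity trend and robust prior (Lpl adjusted p = 0.0781) and with the replicate number as a block (adjusted p = 0.0565). Leaving out 1 array at a time gave 0 to 2: it was 0 without any 1 of the NEMO/Jnk1 DKO, NEMO/Jnk2 DKO or WT arrays or Jnk2 KO replicate 1, and 2 without Jnk1 KO replicate 3. Between NEMO/Jnk1 DKO and WT livers the count of 0 became 1 (Lpl) with only the arrays compared, with array weights, without the 2 doubted arrays, and without them with the Xist term, and leaving out 1 array gave 0 to 1, with 1 only without Jnk1 KO replicate 1. Without the 2 doubted arrays, with or without the Xist term, it also became 1 for each DKO against its single knockout. The cause of these changes was not tested. The replicate block changed no other count of passing genes among the 9, and 3 of 15 arrays correlated best with an array of their own number. No gene of the 9 has another single-symbol probe set, so the alternative probe sets gave no value. Over all genes the number passing moved widely, between 56 and 2116 (525 as reported) for NEMO/Jnk2 DKO and between 0 and 1578 (13 as reported) for NEMO/Jnk1 DKO against WT, between 0 and 1033 for NEMO/Jnk1 DKO against Jnk1 KO (0 as reported), and between 0 and 1167 for NEMO/Jnk2 DKO against Jnk2 KO (1 as reported). It ran from 16 to 248 for Jnk2 KO against WT (82 as reported).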

Other observations

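Apoc3 had the same deposited value, 12.44, to all the digits given in NEMO/Jnk1 DKO replicate 2, WT replicate 1 and WT replicate 3, although no arrays were identical as a whole. Mttp likewise had the same value, 10.08, in NEMO/Jnk2 DKO replicate 1 and WT replicate 3. Apoe had the same value, 13.24, in NEMO/Jnk1 DKO replicate 2, NEMO/Jnk2 DKO replicate 2 and WT replicate 3.

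Without the 2 doubted arrays, Jnk2 KO livers differed from WT in 7 of the 87 other lipoprotein genes, 5 higher and 2 lower, where 1.24% of all genes passed. Saa1 rose by 3.15 and Saa4 by 1.23 there (limma adjusted p = 0.0176 and 0.0262), Cebpb, an inducer of acute-phase genes, rose by 1.25 (adjusted p = 0.0199), and Nr2f2 fell by 0.72 on the log2 scale (adjusted p = 0.0343). In Jnk1 KO livers none of the 87 passed against WT in the same limma fit.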
